A study of Mus musculus with 26 samples.

Results

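Mouse mesenteric arteries, the small arteries that feed the gut and take part in setting vascular resistance, were compared with the aorta, the large elastic artery that leaves the heart, in mice that had received no angiotensin II. The members are the 4 mesenteric and the 4 aortic libraries of the sham, normotensive group, 8 of the 26 bulk RNA-seq libraries of the series. They were taken by their labels and not by any measured value. Both tissues came from male C57BL6J mice whose Sphk1 gene, which encodes sphingosine kinase 1, is flanked by loxP sites on both alleles. These mice carried no Cre recombinase, since they were the Tagln-cre-negative offspring of the cross that also gave the smooth muscle knockout. Sphk1 was therefore not deleted in any of the 8. The other 18 libraries are used below only beside the sham values. They come from the same 2 tissues of mice infused with angiotensin II at 490 ng/kg/min for 14 days by a minipump under the skin, begun at an age of 12 to 14 weeks, either of the same Cre-negative genotype (4 and 4 libraries) or lacking Sphk1 in cells that express Cre from the Tagln promoter (5 and 5). The labels state no age for the sham mice alone. They count 4 sham mice and do not say which aorta and which mesenteric arteries came from 1 animal.

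The wall of both vessels holds 3 layers: endothelium, which faces the blood, smooth muscle, which contracts, and an outer layer of fibroblasts, nerves and fat. An elastic artery stores the energy of each heartbeat in sheets of elastin laid between its muscle layers. A small muscular artery changes its diameter instead, under the control of sympathetic nerves, endothelial signals and its own response to stretch, and potassium and calcium channels couple these inputs to contraction. The 2 beds also lie at different levels of the body axis, and the smooth muscle of the gut vessels arises from mesoderm close to the gut.

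Counts assigned to genes ran from 26178990 to 32251097 in the aortic libraries and from 20185238 to 28526435 in the mesenteric ones. Levels are counts per 1000000 counts of the library (CPM), scaled by trimmed mean of M-values, and each difference is the log2 of mesenteric over aortic level with its standard error, from edgeR's quasi-likelihood test over all genes. A gene is called where its Benjamini-Hochberg adjusted p is below 0.05. Libraries are listed as replicates 1 to 4 of each group. Some libraries stood apart from their group. Mesenteric replicate 3 carried few transcripts of pancreatic enzymes (53530, 19600, 57.8 and 16780 CPM summed over the acinar marker list in replicates 1 to 4) and the smallest share of mitochondrially encoded RNA (2.485%, against 5.42% to 6.05% in the other mesenteric libraries). Aortic replicate 4 had the most fat-cell RNA (287, 201, 154 and 777 CPM summed over the brown adipocyte markers) and the largest mitochondrial share (6.88%, against 3.867% to 4.275%). Calls that are lost when both are left out are named beside the gene. Where a library left out held the only counts of a gene in its group, the fitted difference without it depends on the prior count and is no measure of size.

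Of 16569 genes tested, 7115 were called (42.9%), 3651 of them higher in mesenteric arteries (22.0% of the genes tested) and 3464 lower (20.9%). With a difference of at least 2-fold asked for as well, 2039 genes were higher (12.3%) and 1109 lower (6.69%). The median difference over all genes was -0.009. Differences of at least 16-fold were found for 395 genes higher and 105 lower. A count for a gene list below is to be read against these shares. A gene near 0 in 1 tissue can pass the filter on low counts only through the other, so counts over such genes are descriptions and no support for a direction. Without the 2 libraries named above, 3620 genes were higher and 3332 lower. The comparison of the same tissues after angiotensin II uses none of the 8 sham libraries. There 16.0% of genes were called higher and 16.7% lower in Cre-negative mice, and 23.3% and 19.7% in the knockout. Whether a difference between the tissues was larger in sham than in infused mice was not tested. Of the 6893 sham calls tested there in Cre-negative mice, 4014 were called in the same direction, which is 58.2% of them and 74.1% of the 5419 calls after angiotensin II, and 41 in the opposite one. In the knockout under angiotensin II, 4693 of 6942 were called in the same direction (67.6% of them and 65.5% of the 7169 calls there) and 57 in the opposite one.

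The best known contractile genes, Tagln, Acta2 and Myh11, differed by less than 2-fold between the vessels, while the filament genes Des and Synm differed by far more. Of the 39 genes tested from a list of the contractile apparatus, 10 were higher and 16 lower in mesenteric arteries, with a median difference of -0.04, and 5 and 3 of them passed 2-fold. Summed over the list, the level was 82650 to 97900 CPM in the aorta and 79380 to 94240 CPM in mesenteric arteries, so the groups overlapped. In bulk tissue a lower level can stand for fewer cells of a type or for less RNA per cell, and the 2 cannot be told apart here.

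Des, which encodes desmin, the muscle intermediate filament protein, was at 108, 154, 146 and 94.3 CPM in aortic replicates 1 to 4 and at 2567, 2935, 2968 and 2304 CPM in the mesenteric ones. The groups lay far apart, and the difference was 4.42 ± 0.18 (adjusted p = 8.48e-09). Synm, which encodes synemin, a filament protein that pairs with desmin, was at 59.0, 59.4, 59.0 and 55.7 CPM against 434, 493, 442 and 393 CPM. It was 7.56-fold higher in mesenteric arteries (2.92 ± 0.09). Vimentin, the filament protein of mesenchymal cells, lay the other way, since Vim was at 5464 to 6782 CPM in the aorta and 3772 to 4022 CPM in mesenteric arteries (-0.61 ± 0.09). Actg2, the smooth muscle gamma-actin that is abundant in gut and bladder muscle, was at 224, 330.4, 313 and 208 CPM in the aorta and 945, 897, 723 and 893 CPM in mesenteric arteries (1.69 ± 0.16). Tpm1 (tropomyosin, 0.72 ± 0.10) and Smtnl2 (a smoothelin-like protein, 1.53 ± 0.16) were also higher.

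Several genes of the same list were lower in mesenteric arteries. Myh10, which encodes non-muscle myosin IIB, was at 763, 729, 735 and 732 CPM in the aorta and 69.4, 78.6, 60.8 and 92.0 CPM in mesenteric arteries (-3.30 ± 0.12, adjusted p = 4.65e-09). Itga8, the integrin alpha-8 subunit by which smooth muscle binds matrix, was at 3837, 3662, 3850 and 3621 CPM against 590.2, 822, 576 and 686 CPM (-2.48 ± 0.12). In both genes the 2 groups were far from overlapping. Fhl1 (a LIM-domain protein, -1.47 ± 0.11), Smtn (smoothelin, -0.76 ± 0.11), Cnn1 (calponin, -0.84 ± 0.15) and Cav1 (caveolin, -0.64 ± 0.11) were lower by less. After angiotensin II, Myh10, Itga8 and Fhl1 were the 3 of the 16 lower genes called lower, in both genotypes. Smtn, Cnn1, Cav1 and Vim were called in neither. In each genotype 1 gene of the list was called in the opposite direction, and all 10 higher genes were called higher. Tagln, whose promoter drives the Cre of this mouse line, was at 5898 to 7953 CPM in the aorta and 6279 to 7780 CPM in mesenteric arteries and was not called (0.08 ± 0.11, adjusted p = 0.619). Other genes on the opposite strand cover 67.9% of its exon bases, and the strand setting of the counts was not known. Flna, Myl9 and Cald1, which encode filamin, a myosin light chain and caldesmon, were not called either (-0.18 ± 0.09, 0.14 ± 0.11 and -0.01 ± 0.10).

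The pair of genes most used to mark vascular smooth muscle went in opposite directions by small amounts. Acta2, the smooth muscle alpha-actin, was at 16200, 18850, 16610 and 14580 CPM in the aorta and 12370, 13460, 13250 and 11400 CPM in mesenteric arteries (-0.39 ± 0.10, adjusted p = 0.00713). Myh11, the smooth muscle myosin heavy chain, was at 8338, 7476, 8101 and 6887 CPM against 9244, 11610, 9657 and 9256 CPM (0.37 ± 0.10, adjusted p = 0.0125). Neither call was kept when all 26 libraries shared 1 model (adjusted p = 0.173 for Acta2 and 0.138 for Myh11), and that of Myh11 was also lost without the 2 libraries that stand apart (0.33, adjusted p = 0.0566). After angiotensin II, Acta2 differed by -0.04 in Cre-negative mice and by 0.05 in the knockout and was called in neither, while Myh11 was higher in mesenteric arteries in both (1.03 and 0.99). Both genes were named after their values were seen.

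Many contractile genes are known to be driven by serum response factor, which binds the CArG box, a CC and a GG around a core of 6 letters that are A or T. The 250 bases before each RefSeq start site (GRCm38.p6) were searched for this box with 1 other letter allowed in the core, a pattern that reads alike on both strands. It was found in 8.59% of the 32851 windows of all genes, and the box without the exception in 1.47%. Of the 40 contractile genes, 35 had a window in the table, and 10 of these held a box. Counted by window, as the share of all windows is, 12 of their 45 windows held one (26.7%). A box was found in 1 of the 7 such genes that were higher in mesenteric arteries, in 6 of the 15 lower and in 3 of the 13 not called. The stretches below show the boxes in capitals for 4 genes with different results: Synm, higher in mesenteric arteries, Acta2 and Fhl1, lower, and Myl9, not called. They are read 5′ to 3′ on the strand of the gene and lie at chr7:67759942-67759992 (minus strand), chr19:34255374-34255487 (minus), chrX:56779551-56779620 (plus) and chr2:156775273-156775404 (plus). A match is a description of the letters and not evidence that a factor binds there.
Synm: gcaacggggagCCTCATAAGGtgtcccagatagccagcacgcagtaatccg
Acta2: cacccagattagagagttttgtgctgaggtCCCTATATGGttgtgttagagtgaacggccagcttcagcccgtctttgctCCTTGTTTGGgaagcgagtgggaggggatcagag
Fhl1: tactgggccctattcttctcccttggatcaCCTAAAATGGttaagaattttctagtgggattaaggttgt
Myl9: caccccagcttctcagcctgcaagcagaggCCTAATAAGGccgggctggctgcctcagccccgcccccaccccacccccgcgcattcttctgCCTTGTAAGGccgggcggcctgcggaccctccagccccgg

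**Figure D1:**
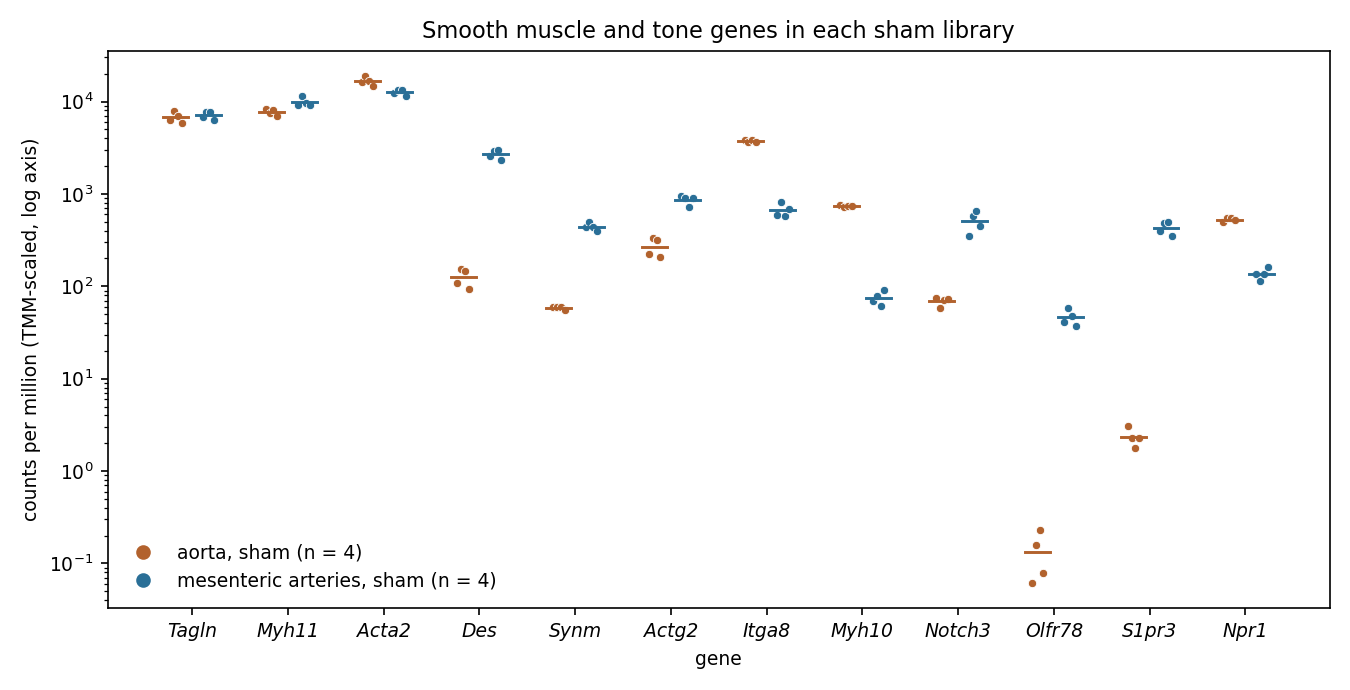
Level of 12 smooth muscle and tone genes in each of the 8 sham libraries, in CPM on a log axis; each point is 1 library, and the short bar is the mean of 4. Tagln overlaps between the tissues, Des, Synm, Olfr78 and S1pr3 lie higher in mesenteric arteries, and Itga8, Myh10 and Npr1 lie higher in the aorta, with no overlap between the groups in these 7.

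Regulators of the smooth muscle state split by gene. Of 27 tested, 11 were higher and 9 lower, and 2 and 2 passed 2-fold. Srf itself was not called (-0.10 ± 0.08), nor was Heyl, a Notch target (-0.16 ± 0.14). Tcf21, a transcription factor of visceral mesoderm and adventitial progenitors, was at 0.476 to 0.778 CPM in the aorta and 8.58 to 14.9 CPM in mesenteric arteries (4.03 ± 0.23). Klf2, a flow-responsive factor of endothelium, was higher (1.58 ± 0.19, with mesenteric replicate 3 the highest library), but after angiotensin II it was not called in Cre-negative mice (0.24, adjusted p = 0.405) and was called in the knockout (0.87). The list of immediate early genes, which answer stress and handling, was higher for 10 and lower for 2 of 20 genes, and for 4 and 1 with all 26 libraries in 1 model. Its summed level was 1159, 1483, 1152 and 971 CPM in the aorta and 1434, 1866, 2475 and 1480 CPM in mesenteric arteries, replicate 3 again the highest, and its part in the Klf2 result was not tested. Tead1 and Mrtfb, which act with serum response factor, were higher by less (0.50 ± 0.07 and 0.44 ± 0.08). Prrx1, a homeobox gene of limb and body-wall mesenchyme, was lower (-1.47 ± 0.11), as were Klf15 (-0.89 ± 0.08), Mef2a (-0.74 ± 0.09) and Rbpms, an RNA-binding protein of smooth muscle splicing (-0.63 ± 0.09).

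Genes that mark the mural cells of small vessels split by gene. Of 22 tested, 11 were higher and 6 lower in mesenteric arteries. After angiotensin II, 8 of the higher and 4 of the lower genes were called alike in Cre-negative mice, and 9 and 3 in the knockout. In each genotype 1 gene was called in the opposite direction. Notch3, the receptor by which small arteries keep their muscle coat, was at 74.9, 58.9, 71.9 and 73.7 CPM in the aorta and 354, 572, 647 and 453 CPM in mesenteric arteries (2.86 ± 0.18, adjusted p = 4.05e-07). Olfr78, an olfactory receptor found in juxtaglomerular and resistance artery muscle, had 14 counts in the 4 aortic libraries together and 4681 in the mesenteric ones, at 0.0622 to 0.233 CPM against 36.8 to 58.5 CPM (8.43 ± 0.26). Higd1b, a pericyte marker, followed the same direction (6.44 ± 0.52, and 7.38 without aortic replicate 4). Against these, Abcc9, the sulfonylurea receptor subunit of the KATP channel of muscle, was at 392, 388, 383 and 403 CPM in the aorta and 122, 85.6, 63.2 and 135 CPM in mesenteric arteries (-1.95 ± 0.21), and its pore partner Kcnj8 was lower too (-0.72 ± 0.15). After angiotensin II, Kcnj8 was called lower in Cre-negative mice (-1.02) but not called in the knockout (0.01). Gucy1b1, the beta subunit of the nitric oxide receptor, was lower in mesenteric arteries (-1.0 ± 0.07), while Gucy1a1, the alpha subunit, was not called (-0.22 ± 0.11). After angiotensin II, Gucy1b1 was called in neither genotype (-0.11 and -0.29), and Gucy1a1 was called higher in both (0.77 and 0.59). Rgs5, the G protein regulator often used to mark pericytes, overlapped between the groups (912 to 1321 CPM and 824 to 1707 CPM, 0.22 ± 0.23), as did Mcam (0.04 ± 0.11). Rgs5 was called higher in mesenteric arteries after angiotensin II, in both genotypes (1.02 and 1.10).

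The elastic fibre genes leaned to the aorta, with exceptions. Of the 23 genes, all of which passed the filter, 13 were lower in mesenteric arteries and 3 higher, against 20.9% and 22.0% of all genes tested, and the median difference was -0.69. The 13 lower genes were each lower in mesenteric arteries after angiotensin II as well, in both genotypes. Of the 3 higher ones, 1 was called higher there in each genotype. Eln, which encodes elastin, was at 4415, 5928, 5446 and 3480 CPM in the aorta and 2418, 3431, 3867 and 2428 CPM in mesenteric arteries, so that the groups overlapped (-0.67 ± 0.20, adjusted p = 0.02). This call rested on single libraries: it was lost without aortic replicate 2 or 3 or mesenteric replicate 1 or 4 (-0.55, -0.59, -0.57 and -0.57, adjusted p = 0.0635, 0.0608, 0.0531 and 0.0561) and without the filter on low counts (adjusted p = 0.0543). After angiotensin II the same gene was lower in mesenteric arteries by -1.58 in Cre-negative mice and -1.82 in the knockout on the log2 scale, both called. The gap between groups was wider for several of the lower genes whose proteins help to assemble the fibre. Fbln5, fibulin-5, which tethers elastin to the cell and its cross-linking enzymes, was at 718, 848, 800.3 and 693 CPM against 375, 354, 340.4 and 365 CPM (-1.09 ± 0.09). Fbln7, another fibulin, was at 82.5 to 91.4 CPM against 16.0 to 20.9 CPM (-2.22 ± 0.09, adjusted p = 5.44e-09). Loxl1 (-1.07 ± 0.09) and Loxl3 (-1.06 ± 0.09), lysyl oxidase-like enzymes that cross-link elastin and collagen, were lower in mesenteric arteries, as were Ltbp3 (-1.35 ± 0.08) and Ltbp2 (-1.47 ± 0.13), which bind latent TGF-beta and microfibrils. Higher in mesenteric arteries were Fbln2 (1.44 ± 0.10), Efemp1, which is fibulin-3 (1.53 ± 0.22), and Fbn2, the fetal fibrillin, at 0 to 0.119 CPM in the aorta and 3.35 to 4.75 CPM in mesenteric arteries (6.65 ± 0.48, and 7.97 without aortic replicate 2). Ltbp4, Fbln1, Emilin1 and Loxl2 were not called (0.13 ± 0.13, -0.11 ± 0.21, -0.17 ± 0.08 and 0.42 ± 0.20).

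The collagens separated by class. The abundant fibril-forming chains were lower in mesenteric arteries: Col1a1 was at 2186, 2045, 2278 and 1750 CPM in the aorta and 824, 749, 1180 and 697 CPM in mesenteric arteries (-1.26 ± 0.16), Col1a2 differed by -1.43 ± 0.14, Col3a1 by -0.81 ± 0.13, Col5a1 by -1.12 ± 0.14 and Col5a2 by -0.68 ± 0.12. The aortic libraries lay above all mesenteric ones in each of these 5. After angiotensin II the differences of Col1a1 and Col3a1 were -3.16 and -2.58 in Cre-negative mice. The minor fibrillar chains were higher in mesenteric arteries. Of the 4 fibrillar genes called higher, 1 was called higher after angiotensin II in Cre-negative mice and 2 in the knockout. All 5 lower ones were called lower in both. Col11a1, a chain best known from cartilage, was at 0.187, 0.397, 0.116 and 0.351 CPM in the aorta and 34.3, 34.7, 68.2 and 46.7 CPM in mesenteric arteries (7.45 ± 0.38), Col5a3 differed by 2.94 ± 0.22 and Col27a1 by 1.85 ± 0.21.

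Of the other collagens outside the basement membrane, 14 of 21 tested were higher in mesenteric arteries and 5 lower. Col13a1, a transmembrane collagen of cell junctions and nerve-muscle synapses, was at 0.0311, 0, 0.233 and 0.117 CPM in the aorta and 57.4, 112, 118 and 77.3 CPM in mesenteric arteries, with no overlap (9.88 ± 0.48, and 10.75 without aortic replicate 3). Col28a1, a collagen of peripheral nerve sheaths, was at 0.66 to 1.03 CPM against 60.6 to 91.1 CPM (6.30 ± 0.18). Col19a1 (2.98 ± 0.20), Col12a1 (1.09 ± 0.09) and Col9a3 (3.10 ± 0.30) were higher as well. Lower were Col6a1, Col6a2, Col6a3 and Col6a6, chains of the beaded-filament collagen that surrounds cells (-0.40 ± 0.10, -0.87 ± 0.11, -0.64 ± 0.10 and -2.47 ± 0.20), and Col8a2 (-1.22 ± 0.27). Col14a1, a collagen of fibroblasts that coats fibrils, was not called (-0.08 ± 0.14). After angiotensin II, 5 of the 14 higher genes were called higher in Cre-negative mice and 6 in the knockout, all 5 lower ones were called lower in both, and 1 and 2 of the 19 were called in the opposite direction.

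In the basement membrane list, 6 of 25 genes were higher and 12 lower. The main chains Col4a1 and Col4a2 were not called (0.14 ± 0.13 and 0.20 ± 0.14). Col4a5 and Col4a6, the chains of smooth muscle basement membrane in the aorta, were lower in mesenteric arteries (-1.18 ± 0.10 and -1.28 ± 0.08), as was Col4a4 (-0.92 ± 0.08). Npnt, nephronectin, the ligand of the integrin that contains alpha-8, was at 1964, 1744, 1852 and 1711 CPM in the aorta and 246, 313, 221 and 323 CPM in mesenteric arteries (-2.72 ± 0.13), so this ligand and its receptor gene Itga8 were both lower. Lamc3 (-2.31 ± 0.09) and Col15a1 (-1.43 ± 0.13) were lower too. The laminin chains Lama3 (2.95 ± 0.15) and Lamb1 (2.37 ± 0.16), the nidogens Nid1 (0.99 ± 0.12) and Nid2 (2.50 ± 0.14) and Itgb4, the integrin beta-4 of hemidesmosomes and Schwann cells (21.6 to 30.9 CPM against 227 to 381 CPM, 3.51 ± 0.17), were higher.

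Matricellular and cartilage-related genes gave some of the largest single differences. Acan, which encodes aggrecan, the large proteoglycan of cartilage, was at 38.3, 52.0, 55.4 and 38.4 CPM in the aorta and 0.355, 0.569, 0.744 and 0.702 CPM in mesenteric arteries (-6.29 ± 0.21, adjusted p = 2.97e-09). Comp, a cartilage matrix protein that smooth muscle also makes, was lower in mesenteric arteries (-2.41 ± 0.13), as was Wif1, a secreted WNT inhibitor (-5.59 ± 0.40, and -6.38 without mesenteric replicate 4). Sox6 and Sox5, transcription factors of cartilage, were higher instead (2.36 ± 0.11 and 1.21 ± 0.13), so the list of 24 genes tested split into 11 higher and 10 lower. Of the 26 matricellular genes, 14 were lower in mesenteric arteries and 9 higher. Tnc, Postn, Thbs2 and Smoc1 were lower (-1.84 ± 0.14, -1.74 ± 0.14, -2.05 ± 0.10 and -2.27 ± 0.15), while Thbs1, Sparcl1 and Spon1 were higher (2.43 ± 0.14, 3.20 ± 0.16 and 2.20 ± 0.09). Among small proteoglycans, Bgn (biglycan, -1.28 ± 0.14) and Prelp (-2.09 ± 0.12) were lower, and Dcn (decorin) and Lum (lumican) were not called (-0.14 ± 0.21 and -0.08 ± 0.18). Serpine2, a protease inhibitor of the vessel wall, was at 1221 to 1462 CPM in the aorta and 314 to 455 CPM in mesenteric arteries (-1.76 ± 0.12).

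Voltage-gated potassium channels of the KV1 family, which hold the resting potential of small-artery muscle, gave 4 genes that were higher in mesenteric arteries. Kcna2 was at 8.43, 7.85, 8.69 and 8.44 CPM in the aorta and 207, 238, 283 and 273 CPM in mesenteric arteries (4.90 ± 0.11, adjusted p = 1.54e-10). Kcna5 was at 2.40, 1.27, 1.82 and 1.64 CPM against 70.4, 105, 85.3 and 74.0 CPM (5.53 ± 0.19). Kcna6 (5.28 ± 0.21) and Kcna1 (6.19 ± 0.31, and 6.83 without aortic replicate 4) were higher as well, as were Kcne3, an accessory subunit (3.48 ± 0.17), and Kcnk5, a background channel (3.22 ± 0.21). Over the 41 potassium channel genes tested, 19 were higher and 14 lower. Lower ones of other families were Kcnip4, an accessory subunit of KV4 channels (10.4 to 12.5 CPM and 0.372 to 0.624 CPM, -4.58 ± 0.19), Kcnc4 (-3.68 ± 0.28), Kcns3 (-1.35 ± 0.14) and Kcnq5 (-1.69 ± 0.18). Of the large-conductance calcium-activated channel, the pore gene Kcnma1 was not called (-0.10 ± 0.10), and Kcnmb1, its smooth muscle beta subunit, was lower (-1.0 ± 0.12). Schwann cells and neurons also express Kcna1 and Kcna2. The summed level of the Schwann cell markers was 298 to 340.1 CPM in the aorta and 1170 to 1647 CPM in mesenteric arteries, and its part in these 2 results was not tested.

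Of 35 genes of calcium stores and entry tested, 16 were higher (45.7%) and 7 lower (20.0%), against 22.0% and 20.9% of all genes tested. Some of the higher ones were near 0 in the aorta, such as Casq2 and Ryr3 with 33 and 19 counts in the 4 aortic libraries together. The summed level was 2719 to 2992 CPM in the aorta and 3312 to 4063 CPM in mesenteric arteries. With all 26 libraries in 1 model, 14 were higher and 4 lower. After angiotensin II, 11 of the 16 higher genes were called higher in Cre-negative mice and 12 in the knockout. Of the 7 lower ones, 1 and 3 were called lower, and Cacna2d1 and Atp2a2 were called in neither genotype. In the knockout 1 gene was called in the opposite direction. Pln, phospholamban, which restrains the calcium pump of the store, was at 5.54, 5.83, 5.74 and 6.13 CPM in the aorta and 247, 297, 179 and 243 CPM in mesenteric arteries (5.38 ± 0.15). Other genes on the opposite strand cover 64.7% of its exon bases. Casq2, calsequestrin-2, which buffers calcium inside the store, was at 0.249, 0.0793, 0.466 and 0.43 CPM against 40.9, 25.5, 22.3 and 37.6 CPM (6.68 ± 0.35), while Casq1, the skeletal form, was lower in mesenteric arteries (-2.23 ± 0.28). Atp2a3 was higher (2.17 ± 0.12) and Atp2a2, the pump gene that smooth muscle uses most, lower by less (-0.40 ± 0.11). Among release channels, Itpr3 (1.79 ± 0.10) and Ryr3 (4.87 ± 0.29) were higher, and Itpr1 and Ryr2 were not called (0.05 ± 0.09 and 0.24 ± 0.12). Cacna1c, the pore of the L-type channel that carries calcium into arterial muscle, fell just short of the threshold (0.24 ± 0.09, adjusted p = 0.0502). Its accessory gene Cacna2d1 was lower (-0.67 ± 0.07), as were the pores Cacna1d (-1.84 ± 0.27) and Cacna1g (-0.78 ± 0.13), the latter of the T type. Cacna1h, another T-type pore, named after its values were seen, was higher, at 3.52 to 8.23 CPM in the aorta and 63.5 to 102 CPM in mesenteric arteries (3.67 ± 0.26).

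Mechanosensitive and chloride channels also set the beds apart. Of the 18 TRP, PIEZO and related genes tested, 10 were higher and 4 lower, against 22.0% and 20.9% of all genes tested. The summed level of the list went the other way. It was 1209 to 1324 CPM in the aorta and 1019 to 1120 CPM in mesenteric arteries, with no overlap. Trpc6, a receptor- and stretch-linked cation channel, was at 0 to 0.238 CPM in the aorta and 4.05 to 5.77 CPM in mesenteric arteries (5.47 ± 0.44). Trpc4 (6.18 ± 0.41), Trpv4 (2.38 ± 0.14) and Piezo1 (1.16 ± 0.09) followed, and Trpm4, a channel of the myogenic response, was not called (-0.01 ± 0.10). Without aortic replicate 1 the difference of Trpc4 was 6.89, and without aortic replicate 2 that of Trpc6 was 6.07. Pkd1, polycystin-1, was lower (-0.88 ± 0.09). Only 2 genes of the list were lower without aortic replicate 1 or 3 or mesenteric replicate 1 or 2, with library size alone, with scaling to the contractile genes, without the filter on low counts or with all 26 libraries in 1 model. Of the 32 chloride and sodium channel and transport genes tested, 18 were higher and 8 lower. Ano1, the calcium-activated chloride channel of muscle, was at 154, 189, 177 and 149.9 CPM in the aorta and 50.9, 30.8, 25.2 and 53.2 CPM in mesenteric arteries (-2.07 ± 0.24), and Ano2 was lower too (-2.95 ± 0.21). Clca2 (4.74 ± 0.58), Clcn3 (0.67 ± 0.08) and Clca1, which had no count in the aorta and 168 in mesenteric arteries, were higher. These 3 were named after their values were seen, and the Clca genes have close copies that can split reads. The sodium channel genes Scn7a (2.74 ± 0.15), Scn8a (5.45 ± 0.45) and Scn4b (6.22 ± 0.49, and 7.39 without aortic replicate 1), which nerve and glia express, were higher, and Scn2a was lower (-1.20 ± 0.11). All 5 gap junction genes tested were called. Gja4, connexin 37, was at 20.7 to 28.4 CPM in the aorta and 137 to 229 CPM in mesenteric arteries (2.83 ± 0.18), and Gja5, connexin 40, was higher by less (1.22 ± 0.16). Gja1, connexin 43, went the other way, at 148, 151, 149.5 and 164 CPM against 36.5, 26.3, 25.8 and 36.5 CPM (-2.29 ± 0.12).

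Receptors that drive contraction were mostly higher in mesenteric arteries, 18 of 32 tested against 7 lower, and 17 of the higher ones passed 2-fold, where 12.3% of all genes did. S1pr3, a receptor for sphingosine-1-phosphate, the product of the kinase that Sphk1 encodes, was at 3.08, 2.26, 1.78 and 2.27 CPM in the aorta and 397, 483, 503 and 347 CPM in mesenteric arteries (7.51 ± 0.20, adjusted p = 7.51e-10). The difference was 6.30 in Cre-negative and 5.92 in knockout mice after angiotensin II. P2rx1, the ATP-gated channel by which sympathetic nerves contract small arteries, was at 67.3, 62.7, 59.3 and 40.3 CPM against 558, 751, 595 and 524 CPM (3.40 ± 0.18). Ednra, the endothelin receptor of muscle, was at 12.8 to 14.1 CPM against 48.2 to 58.3 CPM (1.97 ± 0.08), but after angiotensin II it differed by 0.25 and 0.09 and was called in neither genotype. Ednrb (2.89 ± 0.18), Oxtr (3.94 ± 0.25) and Agtr1b, an angiotensin II receptor gene (2.94 ± 0.16), were higher. The adrenoceptors split, since Adra1a, the alpha-1A form, named after its values were seen, was higher (3.04 ± 0.26) and Adra1d, the alpha-1D form, lower (-0.93 ± 0.17). Htr1b, a serotonin receptor, was lower (-2.05 ± 0.13), and F2r, Tbxa2r and S1pr2, receptors for thrombin, thromboxane and sphingosine-1-phosphate, were not called (0.01 ± 0.10, -0.08 ± 0.12 and -0.02 ± 0.09).

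Receptors linked to dilation were higher for 16 and lower for 5 of 28 genes, against 22.0% and 20.9% of all genes tested. Their summed level went the other way. It was 1085 to 1156 CPM in the aorta and 734.5 to 859.3 CPM in mesenteric arteries, with no overlap. Ptgir, the prostacyclin receptor, was higher (7.34 to 9.86 CPM and 32.7 to 46.1 CPM, 2.24 ± 0.13), as were S1pr1, the sphingosine-1-phosphate receptor of endothelium (2.15 ± 0.12), and Ptger4 (1.16 ± 0.12). The natriuretic peptide receptors were lower. Npr1 was at 499, 546, 547 and 518 CPM in the aorta and 136, 113, 136 and 160.1 CPM in mesenteric arteries (-1.95 ± 0.10), and Npr2 differed by -0.73 ± 0.08. Ramp1, which completes the receptor for calcitonin gene-related peptide, was lower (-1.35 ± 0.13), and its partner Calcrl was not called (0.06 ± 0.13). Behind these receptors, Nos3, the endothelial nitric oxide synthase, was higher (2.23 ± 0.12), Ptgis, which makes prostacyclin, was lower (-1.0 ± 0.13), and Pde3a was lower (-0.61 ± 0.08) while Pde1a and Pde1b, other phosphodiesterases, were higher (0.96 ± 0.09 and 2.47 ± 0.11). Nos3 is 1 of 16 endothelial markers, which summed to 1414 to 1537 CPM in the aorta and 5210 to 5626 CPM in mesenteric arteries. The part of the endothelial share in the Nos3 and S1pr1 results was not tested. Rgs2 and Rgs4, which shorten G protein signals, were higher (1.96 ± 0.17 and 1.38 ± 0.16). Rgs7 was lower, at 32.9 to 40.1 CPM in the aorta and 1.67 to 2.92 CPM in mesenteric arteries (-4.01 ± 0.15).

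Enzymes of the sphingosine-1-phosphate pathway differed less than its receptors S1pr3 and S1pr1. Sphk1 was at 4.61, 5.47, 6.48 and 3.32 CPM in the aorta and 9.44, 7.40, 9.25 and 8.11 CPM in mesenteric arteries, so no library overlapped, and the difference was 0.78 ± 0.19 (adjusted p = 0.00577). After angiotensin II it was not called between the tissues in Cre-negative mice (-0.54, adjusted p = 0.142). Sphk2, the second kinase gene (-0.42 ± 0.09), Sgpl1, the lyase (-0.41 ± 0.10), and Asah1, a ceramidase (-0.42 ± 0.06), were lower in mesenteric arteries. Spns2, the transporter that exports the lipid from endothelium, was higher (3.40 ± 0.21), and Plpp3, which breaks it down outside the cell, was not called (-0.07 ± 0.10).

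**Figure D2:**
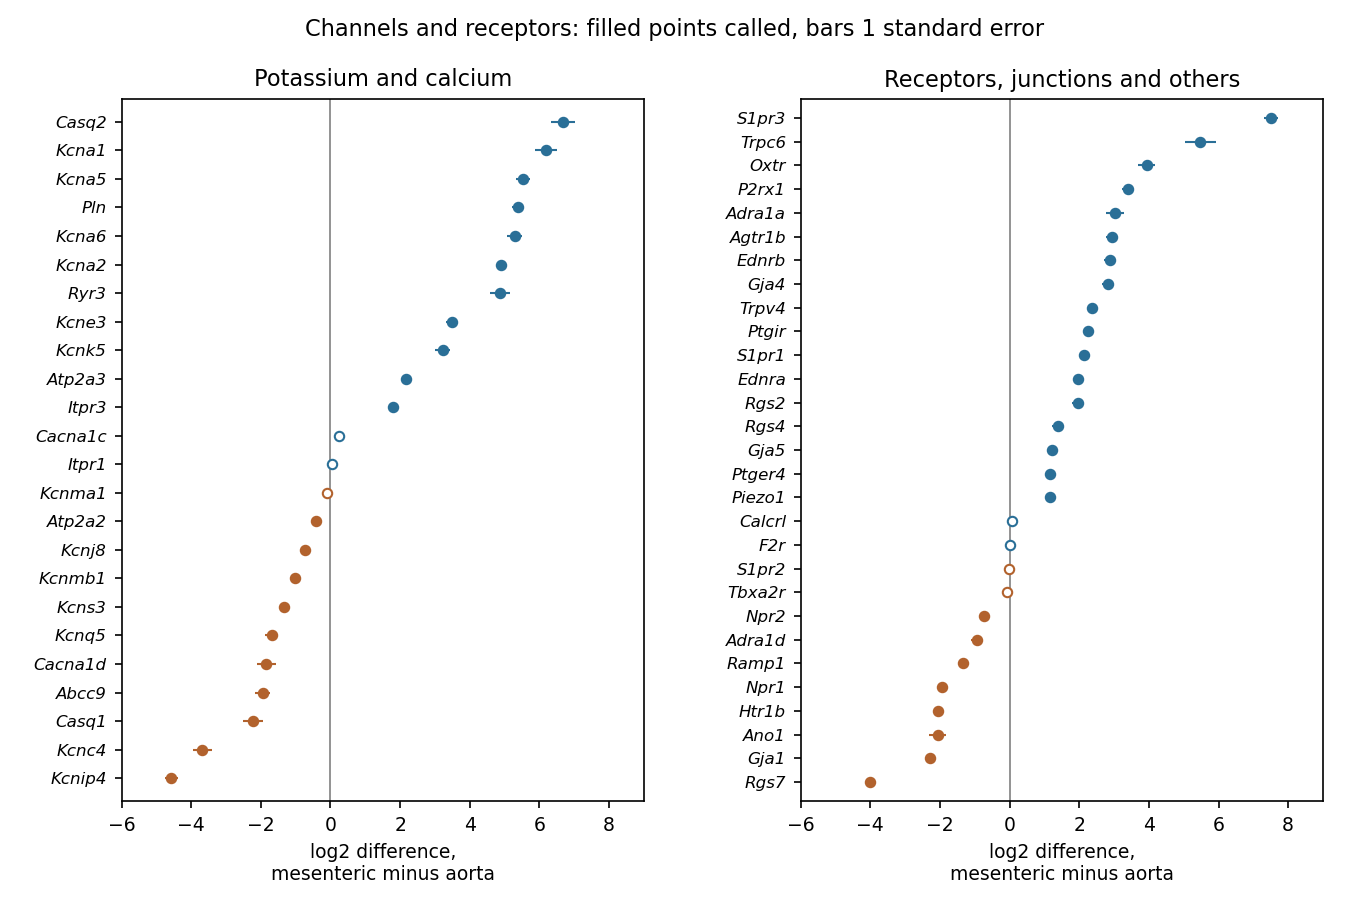
Log2 difference of mesenteric arteries minus aorta in sham mice for a selection of the channel, receptor and related genes named in the text. Points are edgeR estimates, bars 1 standard error, filled points are called. S1pr3, Casq2 and the KV1 genes Kcna1, Kcna2, Kcna5 and Kcna6 lie to the right, and Kcnip4, Rgs7, Kcnc4 and Gja1 lie to the left.

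The Hox genes, which record position along the body axis, differed by cluster and by paralog number. In mice their 39 genes lie in 4 clusters, and higher numbers are used farther toward the tail. Of the 29 tested, 13 were higher in mesenteric arteries and 9 lower, against 22.0% and 20.9% of all genes tested, and without the filter 14 and 9 of 33. All 9 lower ones belong to the A and B clusters and have numbers from 2 to 8. Hoxa7 was at 72.2, 64.0, 54.8 and 74.1 CPM in the aorta and 28.2, 28.4, 19.1 and 25.7 CPM in mesenteric arteries (-1.39 ± 0.13), and Hoxb8 at 23.1, 18.7, 22.7 and 20.0 CPM against 5.82, 6.45, 6.56 and 7.01 CPM (-1.71 ± 0.11). Hoxa2 (-0.94 ± 0.19), Hoxa3 (-1.10 ± 0.13), Hoxa5 (-0.64 ± 0.09), Hoxb3 (-0.98 ± 0.15), Hoxb4 (-0.48 ± 0.09), Hoxb5 (-0.59 ± 0.08) and Hoxb6 (-0.76 ± 0.11) were the other 7. In the A cluster the genes from number 9 on lay the other way. Hoxa10 was at 2.05, 2.06, 1.59 and 1.41 CPM in the aorta and 14.4, 10.7, 8.18 and 3.86 CPM in mesenteric arteries (2.38 ± 0.36). Hoxa11 had no count in the 4 aortic libraries and 204 in the mesenteric ones, at least 72.0-fold higher when 3 counts over the 4 aortic libraries are taken as the limit. Hoxa9 was higher (1.04 ± 0.27), but its call was lost with limma voom (0.77, adjusted p = 0.134) and without the 2 libraries that stand apart (1.04, adjusted p = 0.0545).

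The 5 D cluster genes that passed the filter were higher in mesenteric arteries. Hoxd8 was at 2.89, 1.86, 1.98 and 2.89 CPM in the aorta and 26.7, 22.3, 31.1 and 17.6 CPM in mesenteric arteries (3.33 ± 0.21), Hoxd9 at 0.965, 0.793, 0.155 and 0.664 CPM against 12.3, 8.73, 10.5 and 5.57 CPM (3.82 ± 0.40), and Hoxd10 differed by 3.61 ± 0.72. Hoxd4 (3.17 ± 0.30) and Hoxd3 (2.92 ± 0.66) share 52.3% and 62.4% of their exon bases with other genes of the same strand, so their counts are uncertain. In the C cluster Hoxc8 was at 9.21, 4.88, 4.77 and 7.30 CPM against 21.4, 20.5, 27.8 and 22.7 CPM (1.81 ± 0.20), and Hoxc4 (0.66 ± 0.19), Hoxc6 (0.65 ± 0.15), Hoxc9 (2.13 ± 0.55) and Hoxc10 (3.97 ± 0.85) were higher too. Leaving out 1 aortic library moved Hoxc9 to 2.95 and Hoxc10 to 5.13 (replicate 1), Hoxd3 to 4.54 (replicate 2) and Hoxd10 to 4.88 (replicate 3). The call of Hoxc9 was lost without the 2 libraries that stand apart (1.84, adjusted p = 0.0593) and that of Hoxc6 with all 26 libraries in 1 model. Hoxa4, Hoxa6, Hoxb2, Hoxb7, Hoxb9 and Hoxc5 were not called, with differences between -0.67 and 0.48. Mesenteric replicate 4 was the lowest mesenteric library in Hoxa9, Hoxa10, Hoxc4, Hoxc9, Hoxc10, Hoxd4, Hoxd8 and Hoxd9. After angiotensin II, 8 of the 13 higher and all 9 lower genes were called in the same direction in Cre-negative mice, and 10 and 8 in the knockout. Among cofactors that bind DNA with Hox proteins, Meis1 was higher (0.72 ± 0.11), Meis3 (-0.45 ± 0.10) and Pknox2 (-0.78 ± 0.11) were lower.

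**Figure D3:**
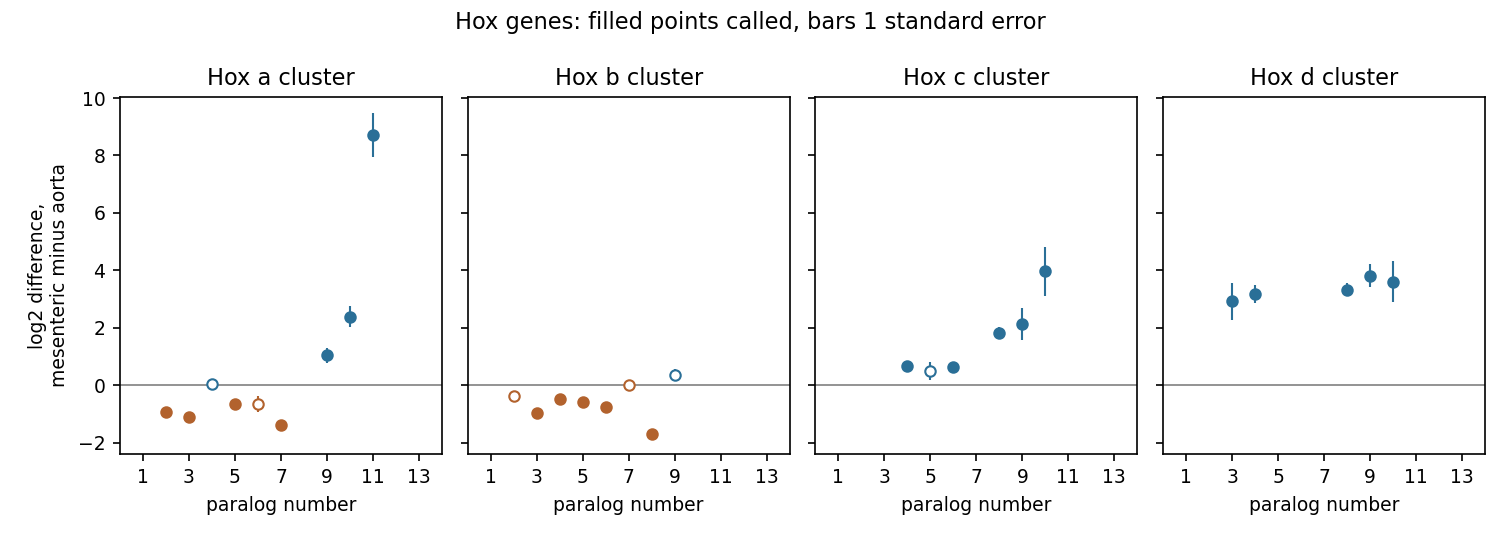
Log2 difference of mesenteric arteries minus aorta for the Hox genes named in the text, against paralog number (1 to 13), 1 panel per cluster; points are edgeR estimates, bars 1 standard error, filled points are called. In the A and B clusters the called genes with numbers from 2 to 8 lie below 0, and in the A cluster those from 9 to 11 and all called genes of the C and D clusters lie above 0.

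Other developmental transcription factors also differed between the 2 vessels. Hand2, a basic helix-loop-helix factor of heart, limb and gut mesenchyme, was at 1.43, 0.912, 1.01 and 1.21 CPM in the aorta and 73.5, 69.9, 72.2 and 74.4 CPM in mesenteric arteries (5.97 ± 0.12, adjusted p = 8.13e-11). Nkx2-3, a homeobox factor of the mesenchyme of gut and spleen, was at 4.92, 5.28, 4.85 and 4.30 CPM against 105, 111, 129.8 and 101 CPM (4.53 ± 0.11). The groups were far apart in both, and their differences after angiotensin II in Cre-negative mice were 5.16 and 4.94. Tbx3 (4.19 ± 0.29), Tcf21 and Hlx, a homeobox gene of visceral mesoderm (1.91 ± 0.10), were higher as well, and Foxf1, a forkhead factor of gut mesoderm, was not called (-0.00 ± 0.20). Over the list of visceral mesoderm factors, 11 of 21 tested were higher and 5 lower. The lower ones included Tbx18, a T-box factor of mural cell progenitors, at 87.8, 83.1, 90.0 and 88.2 CPM in the aorta and 3.55, 4.78, 5.49 and 5.38 CPM in mesenteric arteries (-4.19 ± 0.12, adjusted p = 6.74e-10), and Gata6 (-1.17 ± 0.10).

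Factors of somites, limb and neural crest leaned to the aorta, 17 of 30 tested being lower in mesenteric arteries and 8 higher. The filter passed 30 of the 56 genes of this list, and without it 13 were higher and 19 lower of 51. Twist1, a factor of head and limb mesenchyme, was at 17.9, 26.6, 21.8 and 19.9 CPM in the aorta and 0.461, 0.456, 0.558 and 0.585 CPM in mesenteric arteries (-5.38 ± 0.18). Pax9, a paired-box gene of sclerotome and pharyngeal pouches, was at 3.08 to 4.48 CPM in the aorta, and the mesenteric libraries held 1 count in all (adjusted p = 1.39e-07). Foxd1 (-3.97 ± 0.26) and Irx2 (-4.53 ± 0.38) were lower too, while Tbx2 was higher (7.66 to 11.7 CPM and 65.1 to 104 CPM, 3.15 ± 0.19), as were Alx4 (5.31 ± 0.47) and Meox1 (2.27 ± 0.28).

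Secreted regulators of WNT and BMP signals differed strongly in both directions. Sfrp2, a secreted frizzled-related WNT modulator, was at 332, 432, 452 and 319.5 CPM in the aorta and 3.34, 3.26, 3.16 and 5.03 CPM in mesenteric arteries (-6.69 ± 0.20), and Sfrp5, of the same family, was at 0.342, 0.278, 0.466 and 0.508 CPM against 93.8, 105, 156 and 106 CPM (8.16 ± 0.24). Wnt16, a WNT ligand, was at 56.6 to 79.8 CPM in the aorta and 0.177 to 0.857 CPM in mesenteric arteries (-7.15 ± 0.29), and Wnt6 was higher (4.99 ± 0.25). Grem1, a secreted BMP antagonist, was at 0.56, 0.278, 0.155 and 0.0781 CPM against 111, 60.2, 60.8 and 128 CPM (8.29 ± 0.50, and 9.02 without aortic replicate 1). Lgr6, a receptor for R-spondins, was lower (-3.10 ± 0.14), and its relative Lgr5 higher (5.21 ± 0.51, and 6.09 without aortic replicate 4). Aldh1a1, an enzyme that makes retinoic acid, was higher (2.65 ± 0.14). Over the 49 genes tested, 22 were higher and 18 lower. Of guidance cues, Sema3g, an arterial semaphorin, was higher (12.6 to 18.3 CPM and 300.3 to 516 CPM, 4.70 ± 0.21), as was Slit2 (2.66 ± 0.12). Sema3a and Sema3c, which repel axons, were lower (-1.60 ± 0.15 and -1.57 ± 0.13), as were Unc5c (-1.81 ± 0.11) and Ntf3, a nerve growth factor relative (-1.34 ± 0.12).

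Endothelial genes were higher together in mesenteric arteries. Of 16 markers, 15 were higher, all by at least 2-fold. Their summed level was 1537, 1467, 1527 and 1414 CPM in the aorta and 5349, 5210, 5626 and 5546 CPM in mesenteric arteries. Cdh5, the cadherin of endothelial junctions, was at 89.8, 76.6, 90.7 and 86.3 CPM against 331, 318, 294 and 337 CPM (1.90 ± 0.08), and Tie1 (2.20 ± 0.11), Tek (1.57 ± 0.07) and Egfl7 (2.13 ± 0.10) differed by like amounts. Erg, an endothelial transcription factor, was the other one and was not called (92.1 to 106 CPM and 68.9 to 96.0 CPM, -0.19 ± 0.10). Of the Notch and arterial identity genes, 20 of 27 were higher and 3 lower. The Notch ligands Jag2 (3.35 ± 0.16) and Dll4 (2.92 ± 0.18), the receptor Notch1 (1.98 ± 0.09) and Sox17, an arterial endothelial factor (2.31 ± 0.13), were higher, and the receptor Notch2 was lower (156 to 167 CPM and 82.1 to 92.4 CPM, -0.92 ± 0.06). Most of these higher genes are also expressed by endothelium, so the part that the endothelial share of the RNA has in them was not tested. The same holds for Spns2 and for the channel, junction and receptor genes above that endothelium expresses. Of 7 markers of lymphatic endothelium, 5 were higher, and Lyve1 and Pdpn were not called (0.65 ± 0.30 and 0.11 ± 0.24). Lyve1 gained a call without mesenteric replicate 2 (0.83, adjusted p = 0.0324). Reln was at 0.933, 1.11, 1.51 and 1.05 CPM in the aorta and 83.5, 63.9, 109.7 and 86.6 CPM in mesenteric arteries (6.22 ± 0.21), and Prox1, the factor that defines lymphatic cells, differed by 5.15 ± 0.36, Ccl21a by 5.58 ± 0.45 and Flt4 by 3.51 ± 0.18. Ccl21a has near-identical copies in the mouse genome, so its value is uncertain. The summed level of that list was 61.8 to 98.7 CPM in the aorta and 316 to 668 CPM in mesenteric arteries.

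Markers of nerves were higher in every mesenteric library. Of 12 Schwann cell markers, 10 were higher, with a summed level of 298, 340.1, 308 and 313 CPM in the aorta and 1170, 1316, 1647 and 1580 CPM in mesenteric arteries. Sox10, the factor that defines these cells, was at 0.778, 0.595, 1.05 and 1.05 CPM against 53.6, 68.5, 69.8 and 89.1 CPM (6.33 ± 0.21, adjusted p = 3.91e-09). Pmp22 and Prx were not called (-0.10 ± 0.09 and 0.30 ± 0.14). Neuronal transcripts were at a low summed level of 62.1 to 106 CPM in the aorta and 152 to 212 CPM in mesenteric arteries, and 11 of 16 were called higher and none lower without the filter. Stmn2, a tubulin-binding protein of growing axons, was at 4.42 to 8.99 CPM in the aorta and 67.9 to 85.8 CPM in mesenteric arteries (3.34 ± 0.19). Dbh and Th, which make noradrenaline, had no count in the aorta, ran from 0.142 to 8.81 CPM (Dbh) and from 0.142 to 5.46 CPM (Th) in mesenteric arteries, and did not pass the filter.

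Genes known from neighbouring organs were also higher in mesenteric arteries. Of 20 acinar genes of the pancreas, 16 passed the filter, and their level varied between the mesenteric libraries. Without the filter 18 of the 20 were called higher and none lower. Pnlip, pancreatic lipase, was at 0, 0, 0.388 and 0 CPM in the aorta and 7791, 2639, 6.97 and 2115 CPM in mesenteric arteries (14.98 ± 2.75, adjusted p = 0.00495). Its call was lost without aortic replicate 3 (19.34, adjusted p = 0.0739), and without mesenteric replicate 1 the difference was 14.0. Acinar genes made up 5.29%, 1.97%, 0.0062% and 1.74% of the assigned counts of mesenteric replicates 1 to 4. With limma voom and sample quality weights 2 of the 16 were called, and without aortic replicate 3, 8 of the 19 then tested. When library totals were counted without marker genes of pancreas, gut, fat, blood and striated muscle, 3623 genes were higher and 3447 lower over the whole table, against 3651 and 3464. Intestinal epithelial genes were called higher for 11 of 16 and lower for none without the filter, at a summed level of 17.7 to 21.8 CPM in the aorta and 35.6 to 86.0 CPM in mesenteric arteries, with Epcam at 0 to 0.0776 CPM in the aorta and 0.683 to 2.42 CPM in mesenteric arteries and Apoa1 at 0 to 0.0793 against 1.37 to 7.10 CPM. Of 6 plasma cell markers tested, 5 were higher, among them Jchain (6.08 ± 0.52) and Igha (7.05 ± 0.95, and 11.1 without aortic replicate 4). The list summed to 188.2 to 256.8 CPM in the aorta and 241.7 to 349.2 CPM in mesenteric arteries, so the groups overlapped. After angiotensin II, 1 of the 5 was called higher in Cre-negative mice and 3 in the knockout, where 1 was called in the opposite direction.

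Brown fat markers were higher in the aorta. Of 11 tested, 10 were lower in mesenteric arteries, and Cpt1b was not called. Without the filter 9 of 12 were lower and 1 higher. Ucp1, the heat-producing protein that defines these cells, was at 92.8, 52.2, 33.6 and 388 CPM in the aorta and 0, 0.228, 0 and 0 CPM in mesenteric arteries (-11.12 ± 1.66, adjusted p = 0.00188), a call that was lost with limma voom (adjusted p = 0.131). The difference of Ucp1 was -9.87 without aortic replicate 4 and -14.86 without mesenteric replicate 2. Cidea, a lipid droplet protein, was lower (-3.87 ± 0.71, and -2.96 without aortic replicate 4), and Elovl3 was at 3.14 to 30.3 CPM in the aorta, with 3 counts in the 4 mesenteric libraries together. White adipocyte genes were 1 higher and 4 lower of 15, with 2 lower without mesenteric replicate 1, 2 or 4, and Fabp4 was not called (0.14 ± 0.58). Macrophage markers were lower in mesenteric arteries for 13 of 14, among them Csf1r (113 to 145 CPM and 28.9 to 66.1 CPM, -1.38 ± 0.22), Cd14 (-1.10 ± 0.14), Lyz2 (-0.82 ± 0.13) and C1qa (-1.24 ± 0.21), while Ccr2, of monocyte-derived cells, was higher (1.85 ± 0.37). With all 26 libraries in 1 model 6 of the 14 were lower, and after angiotensin II 5 were in Cre-negative mice and 1 in the knockout. Fibroblast genes did not lean to one side, with 4 higher and 4 lower of 14. Pi16 and Serpinf1 were lower (-1.17 ± 0.13 and -1.55 ± 0.17) and Ly6c1 and Ly6a higher (2.10 ± 0.17 and 1.57 ± 0.15). Ly6c1 has a close copy, Ly6c2, with which its reads can be split.

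**Figure D4:**
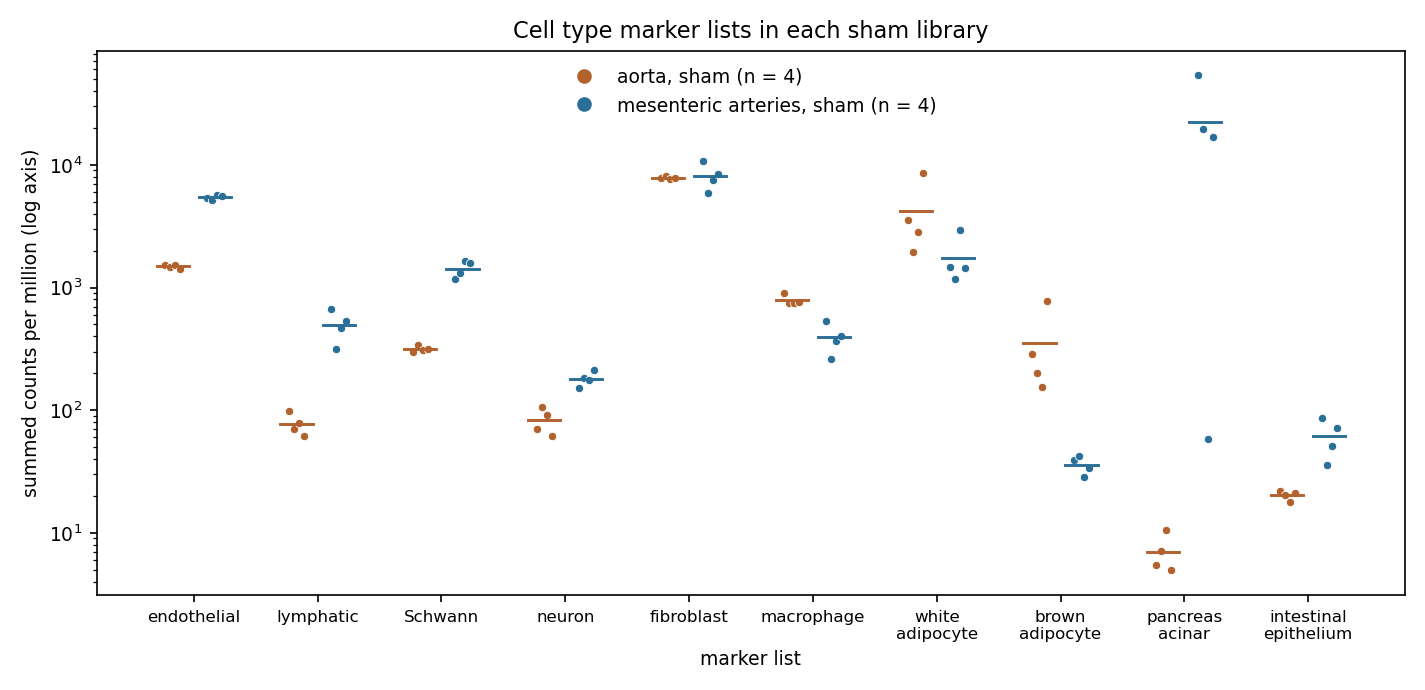
Summed level of marker lists of 10 cell types in each of the 8 sham libraries, in CPM on a log axis; each point is 1 library. Endothelial, lymphatic and Schwann lists lie higher in all 4 mesenteric libraries, brown adipocyte and macrophage lists higher in all 4 aortic ones, and the acinar list spans 57.8 to 53530 CPM within the mesenteric group.

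From all called genes, list members included, those with the smallest adjusted p and those with the largest differences were taken by rule, at an average log2 CPM of at least 5 and of at least 1. Hpse2 and Unc5d below are list members, Hpse2 of the visceral muscle markers. That list did not lean to one side, with 3 higher and 4 lower of 8 tested and a median difference of -0.496. Its summed level was 3901 to 4911 CPM in the aorta and 5550 to 6538 CPM in mesenteric arteries. The largest differences toward mesenteric arteries were pancreatic transcripts, Rnase1 first (0 to 0.0388 CPM and 0.605 to 1621 CPM, mesenteric replicate 3 the lowest, with a call that was lost without aortic replicate 3, adjusted p = 0.101), and Hpse2, a heparanase relative, which had no count in the aorta and 6074 in mesenteric arteries, at least 2162-fold higher by the same limit (49.5 to 74.8 CPM). Those toward the aorta, besides genes already named, were Slc4a10, a bicarbonate transporter (4.92 to 8.74 CPM and 0 to 0.152 CPM, -6.70 ± 0.44, and -7.73 without mesenteric replicate 2), Sh3rf2 (-6.16 ± 0.29), Ccdc152 (-6.34 ± 0.53, and -7.03 without mesenteric replicate 1), Olfr224 (-6.59 ± 0.45, and -8.05 without mesenteric replicate 2) and Unc5d, a netrin receptor (-6.06 ± 0.36). The smallest adjusted p among higher genes belonged to Plekhb1 (2.30 to 2.82 CPM and 89.1 to 119 CPM, 5.33 ± 0.12), Gatm, the first enzyme of creatine synthesis (3.99 ± 0.10), Adam23 (5.34 ± 0.15) and Hand2os1, the antisense neighbour of Hand2 (8.85 ± 0.23, and 9.61 without aortic replicate 1), besides genes named above. Among lower genes they belonged to Itih4 (316 to 359 CPM and 5.58 to 7.84 CPM, -5.63 ± 0.11), Tub (-5.53 ± 0.12), Igsf9 (-5.35 ± 0.13), Osbpl3 (-3.24 ± 0.10), Auts2 (-2.57 ± 0.08), Phactr1, a regulator of actin (-2.70 ± 0.09), Alcam, an adhesion molecule (-2.88 ± 0.10), and Pcdh7, a protocadherin (-2.67 ± 0.09).

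Galnt2, a glycosyltransferase gene, had the smallest adjusted p by this rule (7.89 ± 0.10, adjusted p = 8.04e-13), with 70 counts over the 4 aortic libraries and 15670 over the mesenteric ones. Its value is uncertain. The aortic tables list 2 gene models that the mesenteric tables lack, and one of them, a predicted read-through gene, covers 90.0% of the exon bases of Galnt2 on the same strand in an annotation of build GRCm38, so that reads there could not be assigned to 1 gene in the aortic counts. All 13 aortic libraries of the series had 13 to 23 counts of Galnt2, and all 13 mesenteric ones 2821 to 4327. The tissues were counted with different lists of gene models, and tissue and counting run cannot be told apart. Over all genes, 33 had no count in the 13 aortic libraries but a mean of at least 1 CPM in the sham mesenteric ones, and 1 gene the reverse. Hpse2 and Hoxa11 are among the 33. Neither of the 2 gene models covers their exons in that annotation, but tissue and counting run cannot be told apart for them either.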

How the data were processed

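Polyadenylated RNA of whole arteries was sequenced as stranded paired-end libraries of 150 bases, per the labels' protocols. The deposited values are whole-number counts of reads per gene, 1 table per library, which the authors made with cutadapt, HISAT2 and HTSeq on build GRCm39, per the submitters' processing notes. The annotation release and the strand setting are not given in the sources used here. HTSeq lines for reads not assigned to a gene were left out (reads outside any gene were 7.90% to 10.95% of each sham library). The aortic tables list 55416 gene identifiers and the mesenteric ones 55414, and the 55414 shared were used. Counts of libraries of 1 group differed by more than sampling noise in every pair (chi-square over its degrees of freedom from 11.6 to 150), so each library was counted as its own sample.

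Differences were fitted with edgeR 4.0.16 (R 4.3.3): filterByExpr, TMM scaling, robust quasi-likelihood fit of the 8 sham libraries by tissue, Benjamini-Hochberg adjustment over all 16569 genes tested. The scripts were tested on simulated data. The 2 comparisons after angiotensin II were fitted likewise, each on its own libraries. The p-values measure the spread between 4 libraries of a group. The pairing of aorta and mesenteric arteries by animal is not stated in the labels, so the main comparison is unpaired. DESeq2 1.42.0, limma 3.58.1 voom, other scalings and filters, a replicate block and the omission of each library were tried as alternatives. Leaving out both libraries that stand apart was added after seeing the data. Gene symbols came from GENCODE tables, exon overlap from an annotation of GRCm38, and promoter windows from RefSeq.

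The libraries and the 57 gene lists (1205 of 1209 genes matched) were chosen with earlier results of these data known. Per list and direction, up to 6 called genes with the smallest adjusted p were named, and up to 4 of the genes not called, by level. From all called genes, list members included, up to 10 genes per direction with the largest difference and with the smallest adjusted p were named, without predicted genes. Genes named otherwise are marked. Some genes that the rule would name are not reported here.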

Additional observations from a re-analysis of the deposited data

Results flagged for a closer look

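In each group of 4 libraries, a library was singled out where its gap to the nearest of the others was a larger part of the whole range of the group than the 95% critical value of Dixon's test allows for 4 samples. Chance alone singles out about 1 in 20 groups. Of 114 groups of summed list levels 10 passed, and of 88 groups of single-gene levels 5. The sum of mitochondrially encoded genes was 66000 CPM in aortic replicate 4, against 37070 to 41730 CPM in the other aortic libraries, and 19680 CPM in mesenteric replicate 3, against 51090 to 56030 CPM. Aortic replicate 4 was also the lowest aortic library for matrix proteases (5942 CPM, others from 6651 CPM) and for the renin and angiotensin genes (1149 CPM, others from 1242 CPM). Mesenteric replicate 3 was the lowest for Hox cofactors (338.5 CPM, others from 426.1 CPM). Aortic replicate 1 was the lowest for dilator receptors (1085 CPM, others from 1146 CPM) and the highest for macrophage markers (908.9 CPM, others up to 762.3 CPM) and skeletal muscle markers (26.35 CPM, others up to 9.12 CPM). Plasma cell markers were highest in aortic replicate 2 (256.8 CPM, others up to 198.9 CPM) and in mesenteric replicate 1 (349.2 CPM, others up to 256.4 CPM).

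Among single genes, Pnlip had a level above 0 in 1 aortic library, replicate 3 (0.388 CPM), and Ucp1 in 1 mesenteric library, replicate 2 (0.2278 CPM). Ucp1 was highest in aortic replicate 4 (387.6 CPM, others up to 92.75 CPM). Sfrp2 was highest in mesenteric replicate 4 (5.028 CPM, others up to 3.337 CPM), far under its aortic levels. Synm was lowest in aortic replicate 4 (55.66 CPM, others from 58.96 CPM), a gap that is small beside the difference between the tissues.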

How the results depend on the processing

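The number of genes called, 3651 higher and 3464 lower, stayed within 1.5 times under every alternative other than a test against a 2-fold change (edgeR glmTreat), which left 1438 and 614. Leaving out 1 library at a time gave 3368 to 3810 higher and 2955 to 3594 lower. With library size alone as the scale, 4134 were higher and 2825 lower, so that 59.4% of calls were higher, against 51.3%, with the median over all genes moved by less than 0.1. Whether same-numbered libraries came from 1 mouse could not be told from the counts. Deviations of same-numbered aortic and mesenteric libraries correlated at 0.029, 0.178, -0.141 and 0.008, and 2 tissues of 1 mouse need not deviate alike. With the number as a replicate block, 3533 were higher and 3330 lower. The block ended no call of a named gene.

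Of 295 named genes tested, 253 were called, and 238 kept the call under every alternative other than glmTreat, which 180 passed. None changed direction with a call. Of the 15 others, 9 lost it with all 26 libraries in 1 model (adjusted p from 0.0669 to 0.198: Acta2, Atp2a2, Cacna1g, Col8a2, Csf1r, Hoxc6, Kcnj8, Myh11 and Sgpl1) and 4 with limma voom (Hoxa9, Pnlip, Rnase1 and Ucp1). The rest are given beside the gene. Of the genes not called, 13 gained a call under some alternative. The cause was not tested. The median of 3 short lists changed sign: cardiac muscle markers from 1.88 to -0.786 without the filter and -0.174 with all 26 libraries, islet markers from 4.08 to -0.517 where at least 1 CPM in 4 libraries was asked for and 1 gene was left, and visceral muscle markers from -0.496 to 0.678 without the filter. Depth limits the genes near 0 in 1 tissue, where a fitted difference moves with single counts.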
